A study of Mus musculus with 3 samples.

Results

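The genes described here are 34 mouse genes of the NRF2 pathway and of the enzymes that remove reactive oxygen, chosen by name. A gene was included when a probe set listed it as its only gene, and 30 of the 34 were found, with 66 probe sets, among 18194 genes on the array. Prdx1, Prdx5, Prdx6 and G6pdx were not matched to a probe set of their own. Of the 30, 26 lay above the background on at least 1 array, 25 on all 3 arrays, and 4 (Nqo1, Gpx3, Gpx7 and Gsta4) on none.

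The measurements came from melan-a NRAS61K cells, immortalized mouse melanocytes that carry the NRAS61K oncogene, kept with doxycycline at 1 µg/ml for 6, 14 or 28 days. All groups share the oncogene, the drug and medium with dialyzed serum, and no untreated array was used here. Each time point had 1 array of total RNA, so each difference describes a pair of arrays, with no SD, p-value or interval between cultures. The labels do not say what drives the oncogene or whether the line is 1 clone.

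NRF2, the product of Nfe2l2, is a transcription factor that the adaptor KEAP1 marks for destruction in unstressed cells. Oxidants and electrophiles modify KEAP1, NRF2 accumulates, and with small MAF partners it binds antioxidant response elements, which the repressor BACH1 can also occupy. Its targets include enzymes that reduce peroxides, regenerate thioredoxin and glutathione, supply NADPH and degrade heme. Pigment cells also meet oxidants that arise during melanin synthesis.

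The deposited values are on a log2 scale, with the base inferred, and had been quantile normalized by the authors, so every difference is relative to the other genes. A gene was represented by the probe set with the highest mean value, called the main one below. Genes silent in pigment cells, 69 in all with 105 probe sets, set the background at their 90th percentile. In order of time this gave 22.84, 22.64 and 22.80. The log2 differences of probe sets of the same gene spread with an SD of 0.30 between the first 2 arrays, 0.24 between the last 2 and 0.32 between the first and the last, which covers measurement and not culture. Of 10 melanocyte markers, 8 passed the background on the first array and 7 on each later array. Tyr and Kit were below it on all arrays. The summed linear level of these markers was 5.25 times the day 6 sum at day 14 and 2.69 times at day 28. Dct, a melanin enzyme gene, had log2 values of 23.83, 29.17 and 28.03, and Mlana, of the melanosome, 24.25, 29.08 and 28.38. These are among the markers that differed most. Tyrp1 had 27.58, 29.67 and 27.47, back near its day 6 value at day 28. Of 8 markers described, 7 were higher and 1 lower at day 14 against day 6, and 5 were higher and 3 lower at day 28 against day 6. Of all genes, 47.5% and 51.0% were higher in these comparisons. Whether these differences of pigment genes take part in the redox results was not tested. In RNA from whole cultures, fewer cells of a type and less RNA per cell cannot be told apart.

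**Figure D1:**
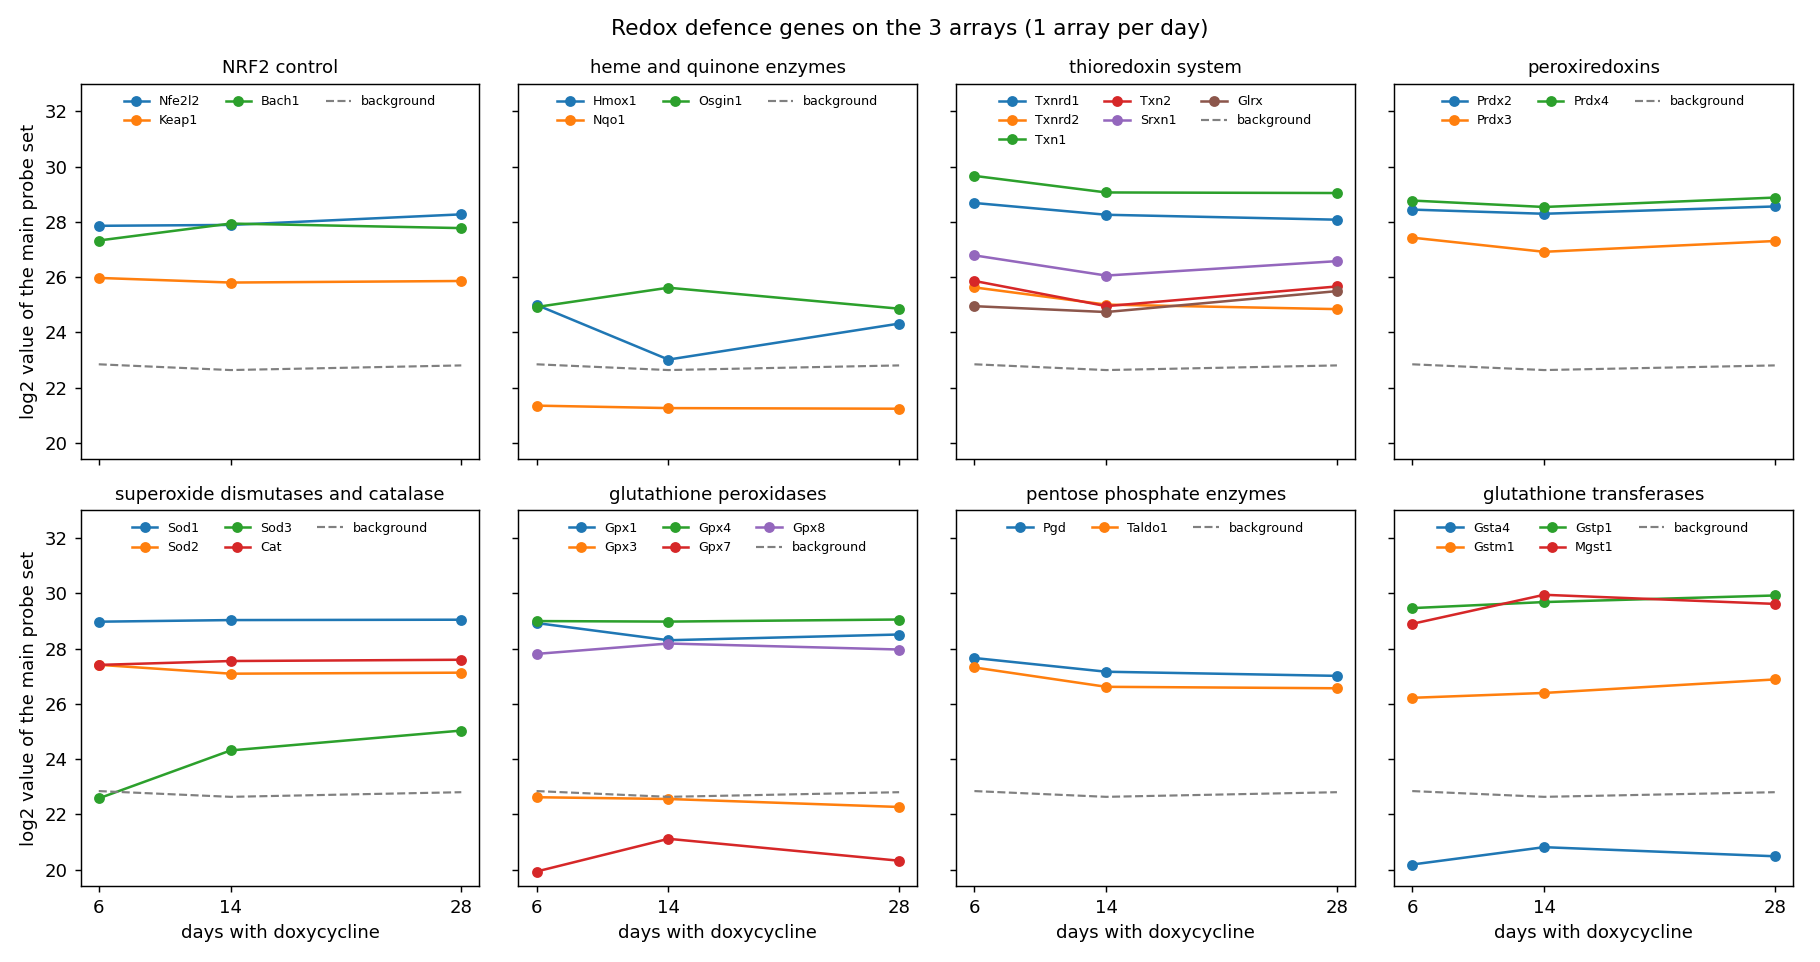
Log2 value of the main probe set (vertical axis) by days with doxycycline (horizontal axis), 1 array per day, with a panel for each role and 1 line per gene; the dashed line is the background. Hmox1 dipped to 23.01 at day 14, Sod3 climbed out of the background, and most other lines are nearly flat. Heights of different genes come from different probes and are not comparable.

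At day 14 against day 6, Hmox1 was far lower, Sod3 and Mgst1 were higher, and most of the other redox defence genes differed by less than 2-fold. Among 26 genes described, 2 were higher by 2-fold or more, against 5.50% of all 11699 genes described. Only Hmox1 was at least 2-fold lower, against 3.88% of all genes. At 1.5-fold, 4 of the 26 were higher (15.4%, against 13.5% of all genes) and 7 were lower (26.9%, against 14.2%). The 7 lower genes were Hmox1, Txn2, Srxn1, Taldo1, Gpx1, Txnrd2 and Txn1. The median log2 difference of the 26 was -0.19, beside -0.03 for all genes. It was -0.27 with arrays shifted to equal hybridization controls, beside -0.11 for all genes. With arrays shifted to an equal median level of 12 reference genes it was 0.06, beside 0.22 for all genes. The sign of this median was thus not settled. Each scaling shifts all genes of an array by the same amount. The distance between this median and that of all genes therefore could not change, and the scalings do not test it.

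At day 28 against day 14, Hmox1 alone was at least 2-fold higher, 1 of 26 against 2.20% of 11710 genes, and 0 were at least 2-fold lower, against 1.45%. At 1.5-fold, Hmox1, Glrx, Sod3 and Txn2 were higher (15.4%, against 7.57% of all genes), and Osgin1 was lower (3.85%, against 4.41%). The median log2 difference was 0.07, beside 0.03 for all genes.

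At day 28 against day 6, Sod3 alone was at least 2-fold higher, 1 of 26 against 6.61% of 11615 genes, and 0 were at least 2-fold lower, against 4.00%. At 1.5-fold, Sod3, Mgst1 and Gstm1 were higher (11.5%, against 15.9% of all genes). Txnrd2, Taldo1, Hmox1, Pgd, Txn1 and Txnrd1 were lower (23.1%, against 12.2%). The median log2 difference was 0.00, beside 0.01 for all genes. The comparisons share arrays, so an error of one array enters more than one of them.

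**Figure D2:**
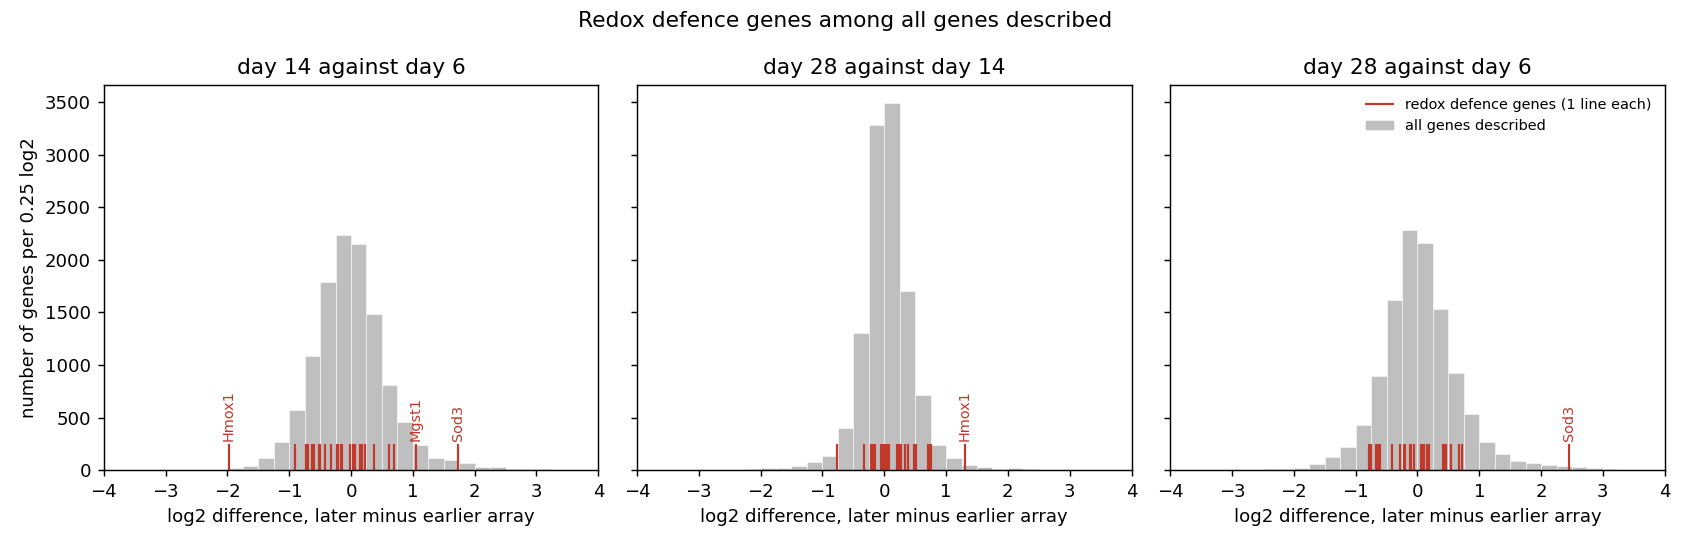
Number of genes (vertical axis) per bin of log2 difference, later minus earlier array (horizontal axis), for the genes described in each comparison (grey), with 1 red line for each redox defence gene. The named lines are those at least 2-fold apart: Hmox1, Mgst1 and Sod3 at day 14 against day 6, Hmox1 at day 28 against day 14, and Sod3 at day 28 against day 6.

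The 3 regulators differed by less than 2-fold on their main probe sets in every comparison, while other probe sets of Nfe2l2 and Bach1 passed 2-fold. Nfe2l2 had log2 values of 27.86, 27.89 and 28.27 at days 6, 14 and 28, so day 28 was 1.33-fold higher than day 6 on the main probe set. Its second probe set read 22.88, 24.21 and 22.85, near the background at days 6 and 28 and higher at day 14, and so did not follow the main one. Keap1, the adaptor that holds NRF2 down, had 25.97, 25.80 and 25.86, with differences of -0.17 to 0.06 between pairs of arrays. Its second probe set read 23.51, 23.11 and 22.95, closer to the background, with -0.40 at day 14 and -0.56 at day 28, each against day 6. Bach1, the repressor that competes for the same elements, had 27.32, 27.94 and 27.77. At day 14 it was 1.53-fold higher than at day 6, and its other probe set gave 0.57 beside 0.61 on the main one. Between days 28 and 6 these probe sets of Bach1 disagreed, with 0.45 on the main one and -0.51 on the other. Day 28 against day 14 gave -0.16 on the main one and -1.09 on the other, which read 25.11, 25.68 and 24.59 in order of time.

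Hmox1 encodes heme oxygenase-1, which opens the heme ring to release iron, carbon monoxide and biliverdin, and is a target of both NRF2 and BACH1. Its only probe set had log2 values of 24.99 at day 6, 23.01 at day 14 and 24.32 at day 28. Day 14 was the low array, close to its background of 22.64, and day 28 lay between the others. The day 14 value was 3.94-fold lower than that of day 6, and 0.18% of the genes described had a difference as low or lower. Day 28 was 2.47-fold higher than day 14, a difference reached or passed by 1.10% of genes, and 1.60-fold lower than day 6. Both differences with day 14 rest on that 1 array. Macrophages also express Hmox1. Of the 8 macrophage markers examined, 5 passed the background on the first and second arrays and 4 on the third, while Ptprc, Tyrobp and Cd14 were below it on all arrays. Cd68, a lysosomal protein gene, had 25.09, 23.98 and 25.99 in order of time, also lowest at day 14. Lyz2 stood 6.09-fold above its day 6 level at day 14, and Csf1r, the receptor of a macrophage growth factor, differed by -0.03. The summed linear level of the 8 markers was 1.92 times the day 6 sum at day 14 and 2.50 times at day 28. Of the 5 markers described, Lyz2 was higher at day 14 than at day 6 and the other 4 were lower, with a median log2 difference of -0.22. The part of such cells in the Hmox1 values was not tested.

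The other measured gene of the heme and quinone group had a different course. Osgin1, an oxidative stress-induced growth inhibitor, had log2 values of 24.92, 25.62 and 24.86. It was high at day 14, 1.62-fold above day 6, and at day 28 it was 1.69-fold lower than at day 14. Nqo1, the quinone reductase often used as a readout of NRF2, had 21.35, 21.26 and 21.24, below the background on all arrays, so no fold is given. A value below the background is a limit of detection on these arrays and does not show that the gene is silent.

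Promoter sequence was set beside these values for the core of the antioxidant response element, searched on both strands as TGACNNNGC and, added after the first search, as TGAGNNNGC. The windows ran from 250 bases before to 50 bases after each annotated start in RefSeq, build GRCm38.p6, and 30 of the 34 genes had 1 or more. Hmox1 and Sod3 were among those without a window. TGACNNNGC, the first search, occurred in 8 of 39 windows of these genes (20.5%), beside 12.4% of all 32851 windows, and TGAGNNNGC in 6 (15.4%), beside 17.6%. Either spelling occurred in 12 windows (30.8%), beside 27.8% of all. Counted by gene, the first search matched 8 of 30 genes (26.7%), beside 14.0% of all genes with a window, and either spelling 12 (40.0%), beside 30.8%. In 4 genes the match was TGAGTCAGC or TGACTCAGC, which overlaps the AP-1 letters TGACTCA or TGAGTCA. These 4 windows are shown because their match overlaps the AP-1 letters. Capitals mark every match of either spelling, and a match on the opposite strand reads as its reverse complement.
Osgin1, chr8:119436897-119437196, plus strand: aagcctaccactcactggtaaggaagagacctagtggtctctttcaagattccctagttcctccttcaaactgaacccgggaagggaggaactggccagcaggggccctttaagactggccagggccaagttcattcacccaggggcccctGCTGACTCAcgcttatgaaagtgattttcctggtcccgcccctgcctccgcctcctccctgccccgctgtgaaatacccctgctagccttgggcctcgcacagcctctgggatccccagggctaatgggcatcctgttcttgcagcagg
Srxn1, chr2:152105274-152105573, plus strand: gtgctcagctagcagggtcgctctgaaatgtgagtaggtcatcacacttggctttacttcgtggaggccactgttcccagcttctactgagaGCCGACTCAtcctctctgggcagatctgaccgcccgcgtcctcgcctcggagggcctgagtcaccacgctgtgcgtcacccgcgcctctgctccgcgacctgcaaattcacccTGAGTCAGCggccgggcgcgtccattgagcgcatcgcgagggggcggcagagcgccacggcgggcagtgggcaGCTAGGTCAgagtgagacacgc
Prdx1, chr4:116685349-116685648, plus strand: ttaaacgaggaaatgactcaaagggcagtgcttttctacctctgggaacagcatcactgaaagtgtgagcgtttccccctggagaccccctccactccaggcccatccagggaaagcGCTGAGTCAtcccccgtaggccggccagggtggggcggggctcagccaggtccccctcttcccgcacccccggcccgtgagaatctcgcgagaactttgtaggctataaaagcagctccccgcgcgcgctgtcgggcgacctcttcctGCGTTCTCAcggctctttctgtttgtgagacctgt
Gstp1, chr19:4037863-4038162, minus strand: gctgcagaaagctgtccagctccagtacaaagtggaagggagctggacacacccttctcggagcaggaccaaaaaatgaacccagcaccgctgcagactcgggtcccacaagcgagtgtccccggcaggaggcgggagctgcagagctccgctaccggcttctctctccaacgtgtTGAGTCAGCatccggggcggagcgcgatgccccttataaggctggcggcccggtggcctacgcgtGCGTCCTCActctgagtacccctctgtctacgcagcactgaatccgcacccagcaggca
The overlapping match began 99 bases before the start in Osgin1, 45 in Srxn1, 133 in Prdx1 and 74 in Gstp1. At day 14 against day 6 the log2 difference was 0.70 for Osgin1, -0.73 for Srxn1 and 0.22 for Gstp1. The Gstp1 value is smaller than the SD of 0.30 between probe sets of a gene, and Prdx1 has no value of its own. A match describes the letters of the window and is not a measured binding site.

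The thioredoxin system reduces oxidized proteins and peroxiredoxins with electrons from NADPH. The 6 genes grouped under it here include the glutaredoxin gene Glrx, which is not part of that system. In this group 6 of 6 genes were lower at day 14 than at day 6, where 52.5% of all genes described lay below 0. Glrx, at -0.21, differed by less than the SD of 0.30 between probe sets of a gene, and its second probe set gave -0.46. At 1.5-fold, 4 of the 6 were lower, against 14.2% of all genes. The median log2 difference was -0.61, and with arrays shifted to an equal median level of the reference genes Glrx turned above 0. Txn1, cytosolic thioredoxin, had log2 values of 29.66, 29.06 and 29.04. Its reductase Txnrd1 had 28.68, 28.25 and 28.08, and the mitochondrial reductase Txnrd2 had 25.63, 25.00 and 24.84. In these 3 genes day 6 was the high array and the later arrays lay close together. Day 28 was 1.54-fold lower than day 6 for Txn1, 1.52-fold for Txnrd1 and 1.72-fold for Txnrd2. The second Txnrd2 probe set near the background gave -0.12 at day 14 against day 6, beside -0.62 on the main one.

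In the mitochondrial thioredoxin gene Txn2 and the sulfiredoxin gene Srxn1, day 14 was the low array. Txn2 had 25.86, 24.95 and 25.66, so day 14 was 1.88-fold below day 6 and day 28 was 1.64-fold above day 14. Its 3 probe sets gave -1.06 to -0.83 for the first of these differences and 0.32 to 0.71 for the second. Srxn1, which restores over-oxidized peroxiredoxins, had 26.79, 26.05 and 26.58. Its 3 probe sets above the background gave -1.29 to -0.73 at day 14 against day 6 and 0.52 to 0.81 at day 28 against day 14. Thus 2 of the 3 were at least 2-fold lower at day 14, while the main one, whose suffix marks a probe set that can detect more than 1 transcript, was not. Glrx, glutaredoxin, which removes glutathione from proteins, had 24.95, 24.74 and 25.49. Day 28 was its high array, 1.69-fold above day 14, and its second probe set gave 0.90 beside 0.76.

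The matched peroxiredoxins, thiol enzymes that reduce hydrogen peroxide, were lower by small amounts at day 14 than at day 6. Prdx2, at -0.15, and Prdx4, at -0.23, differed by less than the SD of 0.30 between probe sets of a gene. The 3 matched genes had log2 differences of -0.51 to -0.15 at day 14 against day 6 and of 0.26 to 0.39 at day 28 against day 14, while Prdx2 and Prdx4 turned above 0 in the first comparison when arrays were shifted to an equal median level of the reference genes. Prdx3, the mitochondrial member, had values of 27.43, 26.91 and 27.30. Prdx4, the member of the endoplasmic reticulum, had 28.77, 28.54 and 28.88, and its 3 probe sets above the background stayed within -0.32 to -0.23 at day 14 against day 6. Prdx2, a cytosolic member, had 28.44, 28.29 and 28.56. Between days 28 and 6 the 3 genes differed by -0.12 to 0.11. For Prdx1, 5 probe sets also list Gm21399, so they were not counted, and their differences ran from -0.14 to 0.18 at day 14 against day 6 and from -0.16 to -0.12 at day 28 against day 6.

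Among the enzymes that remove superoxide and hydrogen peroxide, only the extracellular one was far apart between arrays. Sod3, extracellular superoxide dismutase, had log2 values of 22.58 at day 6, 24.31 at day 14 and 25.03 at day 28. Day 6 lay below its background of 22.84, and each later array was higher. Day 14 exceeded day 6 by at least 2.77-fold and day 28 by at least 4.56-fold, taking the background as the day 6 level. Day 28 was 1.65-fold higher than day 14. The gene entered the comparisons with day 6 through its later values, so those counts are no support for a difference. Its second probe set was below the background on all arrays, with 20.77, 21.40 and 21.06, so the course rests on 1 probe set. Fibroblasts and other stromal cells also make this enzyme, and of the 8 fibroblast markers 5, 4 and 5 passed the background in order of time. Their summed linear level was 2.96 times the day 6 sum at day 14 and 1.55 times at day 28. The members differed in course: Ogn had 24.29, 27.47 and 25.59, Col3a1 25.25, 26.31 and 25.17, and Col1a1 23.97, 23.39 and 23.60. Pdgfra, with 23.88, 24.26 and 25.50 on its main probe set, was higher on each later array, as Sod3 was. Dcn, with 21.92, 22.61 and 23.05, was so too, but passed the background only at day 28. Other probe sets of both genes, below the background on all arrays, did not follow. At day 14 against day 6 they gave -0.70 and -0.58 for Pdgfra and -0.65 for Dcn. The part of such cells in the Sod3 values was not tested.

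The intracellular enzymes stayed close to their day 6 values. Sod1, the cytosolic dismutase, had 28.97, 29.03 and 29.04 on its main probe set. Of its 5 probe sets above the background, 1 gave 0.97 at day 14 against day 6, and the lowest gave -0.15. Sod2, the mitochondrial dismutase, had 27.41, 27.09 and 27.13, and its 3 probe sets gave -0.47 to -0.30 at day 14 against day 6. Cat, catalase of the peroxisome, had 27.41, 27.55 and 27.60, and both its probe sets gave 0.14 at day 14 against day 6.

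**Figure D3:**
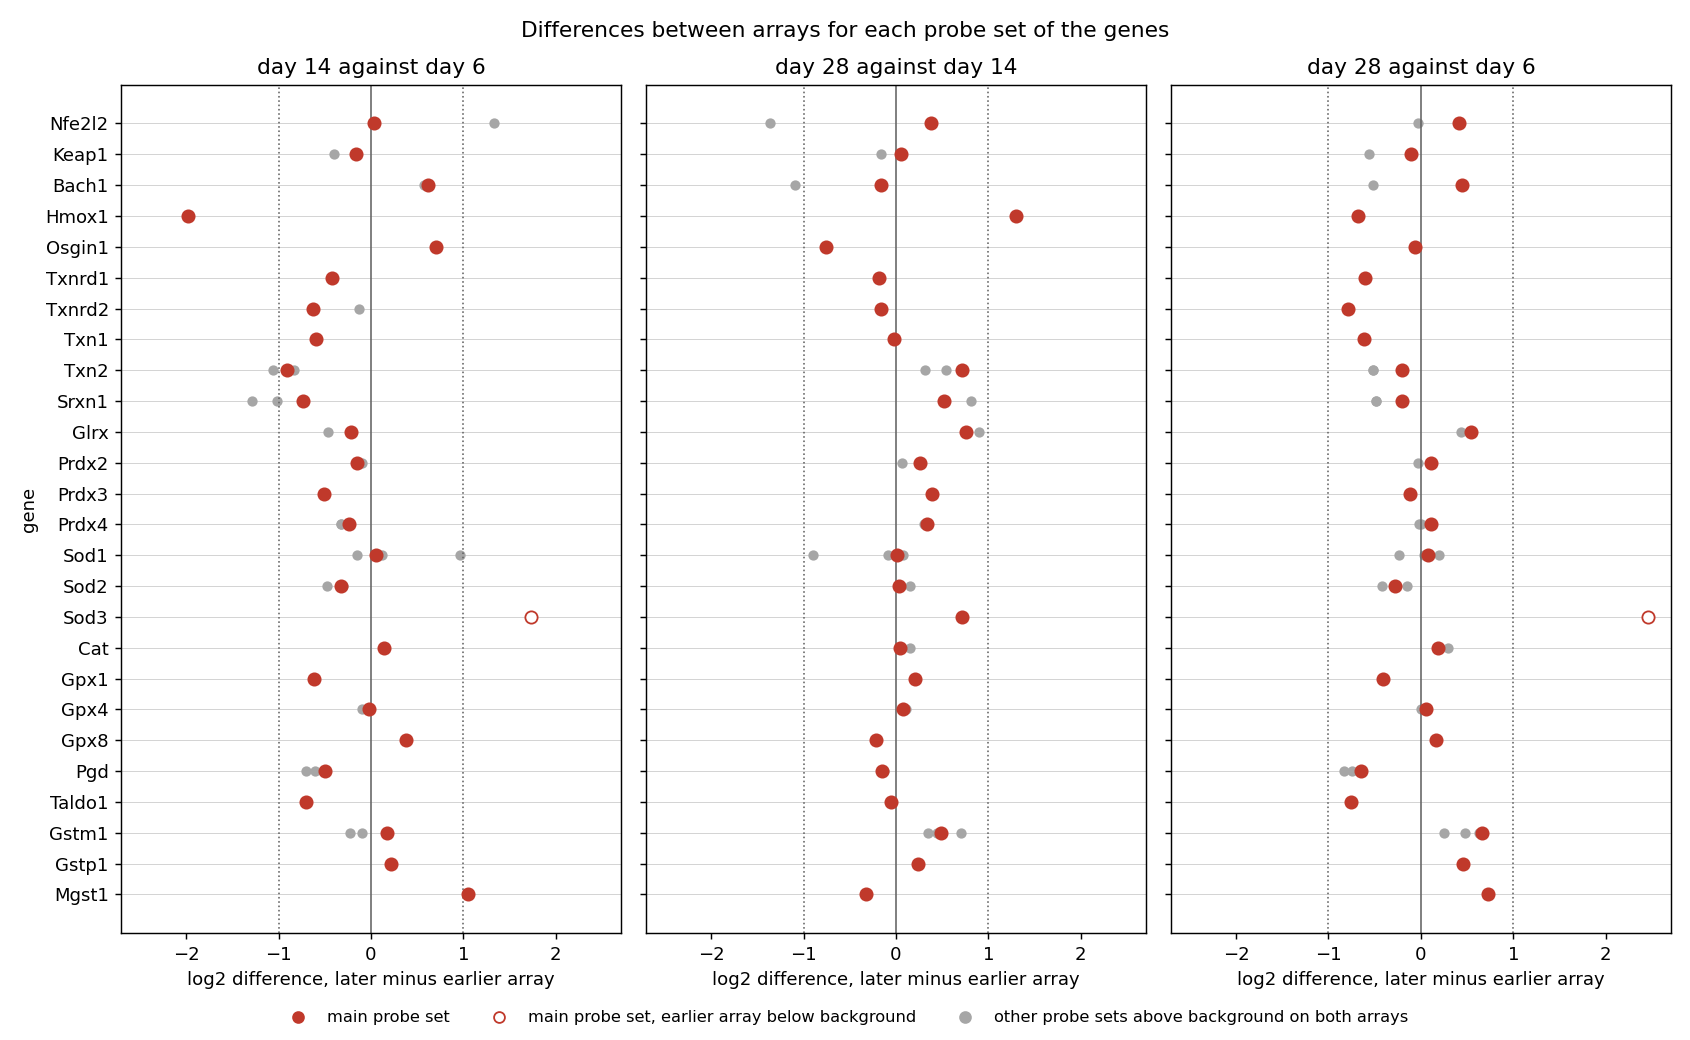
Log2 difference, later minus earlier array (horizontal axis), for each gene above the background on at least 1 array (vertical axis), in the 3 comparisons. Red points are the main probe sets, open where the earlier array lay below the background, grey points are other probe sets above the background on both arrays, and dotted lines mark 2-fold. The plotted probe sets of Txn2, Srxn1, Pgd and Prdx4 lie on one side of 0 at day 14 against day 6, whereas those of Nfe2l2 and Sod1 spread widely.

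Of the 14 genes with 2 or more probe sets above the background on all arrays, 12 had all of them on the same side of 0 at day 14 against day 6. For the later comparisons the numbers were 11 with day 14 and 9 with day 6 as the earlier array. The exceptions in the first comparison were Sod1 and Gstm1. Nfe2l2, Keap1 and Sod1 were the exceptions in the second, and Nfe2l2, Bach1, Prdx2, Prdx4 and Sod1 over the whole course.

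The glutathione peroxidases, which reduce peroxides with glutathione, were split. Gpx1, the cytosolic selenoenzyme, had log2 values of 28.92, 28.30 and 28.51. It was 1.54-fold lower at day 14 than at day 6 and 1.33-fold lower at day 28. Gpx4, which reduces lipid peroxides in membranes and protects against ferroptosis, had 29.00, 28.98 and 29.05, with no difference beyond 0.08 on its main probe set. Gpx8, a member of the endoplasmic reticulum, had 27.81, 28.18 and 27.97, highest at day 14, with a log2 difference of 0.38 from day 6. Gpx3, the secreted plasma enzyme, had 22.62, 22.56 and 22.27, and Gpx7 had 19.93, 21.12 and 20.32, both below the background on all arrays.

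The matched enzymes of the pentose phosphate pathway, which supplies NADPH, were lower at both later time points. For Pgd, phosphogluconate dehydrogenase, the main one of 4 probe sets had 27.66, 27.16 and 27.01. All 4 agreed in sign, with -0.71 to -0.50 at day 14 against day 6 and -0.83 to -0.65 at day 28 against day 6. Taldo1, transaldolase, had 27.32, 26.62 and 26.56, 1.62-fold lower at day 14 and 1.68-fold lower at day 28 than at day 6. For both genes day 6 stood apart from the later arrays, which differed by -0.15 and -0.05.

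The glutathione transferases, which attach glutathione to electrophiles, had 3 of 3 genes above the background higher at days 14 and 28 than at day 6. Of all genes described, 47.5% and 51.0% lay above 0 in these comparisons. Mgst1, a microsomal transferase that also reduces lipid peroxides, had 28.89, 29.95 and 29.62. Day 14 was the high array, 2.07-fold above day 6, and day 28 was 1.65-fold above day 6. With arrays shifted to equal hybridization controls the first difference of Mgst1 fell just short of 2-fold, at 0.97 on the log2 scale. Gstm1, a cytosolic class mu enzyme, had 26.22, 26.39 and 26.88, and its 4 probe sets gave 0.25 to 0.66 at day 28 against day 6. At day 14 against day 6 they ran from -0.23 to 0.18, and with all probe sets averaged the difference was 0.0095. Gstp1, the class pi enzyme, had 29.46, 29.68 and 29.92, 1.37-fold higher at day 28 than at day 6. Gstm1 and Gstp1 have close paralogs, so their probe sets may also detect those. Gsta4, which conjugates lipid aldehydes, had 20.19, 20.81 and 20.48, below the background on all arrays.

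Other known NRF2 targets were set beside these genes. In the first comparison 20 were described, of which 0 were 2-fold higher, against 5.50% of all genes, and 5 (25.0%) were 2-fold lower, against 3.88%. Their median log2 difference was -0.25. The lowest was the cystine transporter gene Slc7a11, 5.76-fold lower. Gclm, the modifier subunit of the enzyme that starts glutathione synthesis, was 2.83-fold lower, and its catalytic partner Gclc 1.56-fold lower. The glutathione reductase gene Gsr was 2.26-fold lower, the biliverdin reductase gene Blvrb 2.28-fold and the aldo-keto reductase gene Akr1b8 2.36-fold. The ferritin heavy chain gene Fth1 differed by 0.12. In the second comparison 2 of 20 (10.0%) were at least 2-fold higher, against 2.20% of all genes, namely Akr1b8 by 4.49-fold and the glutathione synthetase gene Gss by 2.42-fold. The number 2-fold lower was 0, against 1.45%, and the median was 0.16. Between the first and last arrays 0 were higher, against 6.61%, and 3 (15.0%) were lower, against 4.00%, with a median of -0.02. These 3 were Slc7a11, Gclm and Gsr, by 3.55-fold, 3.05-fold and 2.23-fold. Hmox1, Akr1b8 and Blvrb were each lowest at day 14, whereas the main probe sets of Gclm and Gsr differed by -0.11 and 0.02 at day 28 against day 14. The other probe sets of Gclm and Gsr gave 0.36 and -0.09 there.

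The list of NRF2 regulators and DNA-binding partners had medians of 0.03, -0.02 and 0.04 in the 3 comparisons, in the order used above. Of 13 described at day 14 against day 6, 1 was 2-fold higher (7.69%, against 5.50% of all genes) and 0 were lower, against 3.88%. The higher one was the ubiquitin ligase subunit gene Btrc, at the threshold with 1.00. Its other probe sets, below the background on both arrays, gave -0.19 to 0.03. At day 28 Rbx1, of the KEAP1 ubiquitin ligase, was at least 2.44-fold lower than at day 14. It was the 1 of 14 called lower (7.14%, against 1.45% of all genes). Nfe2l3, a relative of NRF2, was the 1 of 14 called higher at day 28 than at day 6 (7.14%, against 6.61% of all genes). It differed by 1.22 as measured, but by at least 1.09-fold when the background stands for day 6. The small MAF gene Mafg had 27.16, 27.04 and 26.77, and Nfe2l1, another relative, had 27.35, 27.26 and 27.53. Maff differed by -0.58 at day 14 against day 6.

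**Figure D4:**
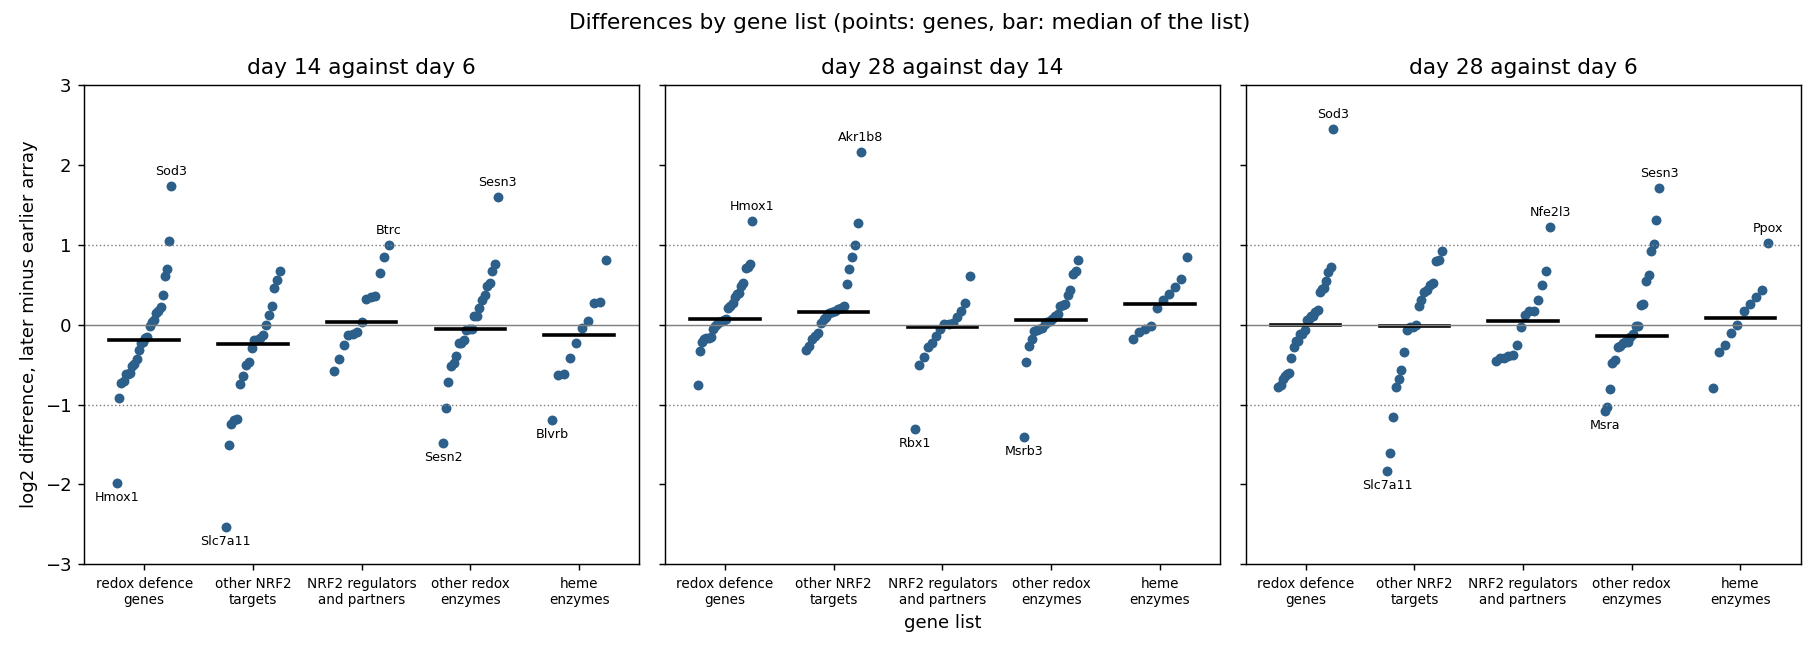
Log2 difference, later minus earlier array (vertical axis), for each gene described (points) in 5 gene lists (horizontal axis), with the list median as a bar and dotted lines at 2-fold. The medians of all 5 lists lie within 0.26 of 0 in every comparison, and single genes such as Slc7a11, Hmox1, Sod3 and Akr1b8 lie far from them.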

How the data were processed

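Processed values of 3 Affymetrix arrays were used, 1 for each of 6, 14 and 28 days. Per the labels' protocols, biotin-labelled cRNA was made from total RNA. The deposited log2 values held 1 number per probe set for 45101 probe sets, and neither the summarization nor the log base is stated in the sources used here. The sorted values of the 3 arrays were identical, so the authors had quantile normalized them; a change common to most genes cannot be seen. The constant added to the values is not stated, and it cancels in differences.

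Gene names came from the platform annotation, updated by gene identifier in GRCm38.p6: 34958 list 1 gene, 932 several, and 9211 were not listed. A gene entered a comparison when above the background on at least 1 of its 2 arrays. Where 1 array was at or below the background, a fold is a bound against it. Calls were at 2-fold, with 1.5-fold as an alternative. The members, lists, roles and rules were chosen with earlier results of these data known. All 34 members are accounted for. From each other list (other NRF2 targets, regulators, other redox enzymes, heme enzymes, marker and reference genes), named genes were up to 4 with the largest differences per comparison, plus Gclc, Gclm, Slc7a11, Gsr, Fth1, Ftl1, Mafg and Nfe2l1 where matched. Alternatives covered probe set choice, background, dim values, fold and scaling. Python 3.11.15, numpy 2.4.6 and pandas 2.3.3 were used, and the steps were tested on simulated data. The number of arrays limits the precision.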

Additional observations from a re-analysis of the deposited data

How the results depend on the processing

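No paired analysis was possible because each time point had 1 array. With probe sets averaged, 1 of 26 genes was 2-fold higher at day 14 against day 6, beside 4.65% of all genes. At day 28 against day 6, 1 was lower, Txnrd1, beside 4.12% of all genes. Its main probe set gave -0.60. The other probe sets in that average, with -1.34 and -1.09, were below the background on all arrays. Without shared probe sets, 2 were lower at day 14 against day 6, beside 4.07% of all genes. Counted at 1.5-fold, 4 were higher and 7 lower at day 14 against day 6, 4 and 1 at day 28 against day 14, and 3 and 6 at day 28 against day 6. The shares of all genes at 1.5-fold were 13.5% and 14.2%, 7.57% and 4.41%, and 15.9% and 12.2%. Without a filter the first median was -0.12, beside -0.05 for all genes. Equal hybridization controls gave 1 higher gene at day 14 against day 6, beside 4.74% of all genes, and a median of -0.27, beside -0.11. At day 28 against day 6 they gave a median of -0.0780, beside -0.0617 for all genes. An equal median level of the reference genes moved the median of all genes by 0.25, 0.17 and 0.42 in the order used above. It gave medians of 0.0595, 0.24 and 0.42 for the redox defence genes, beside 0.22, 0.21 and 0.44 for all genes. It also gave 3 of 26 higher genes at day 28 against day 6, beside 16.1% of all genes. Its share of higher among all 2-fold calls was 85.5%, 79.0% and 92.5%, beside 58.7%, 60.3% and 62.3% as deposited, and with equal hybridization controls 47.3% in the first comparison. An equal median difference of the reference genes, added after seeing the data, moved the median of all genes by 0.13 and 0.16 in the comparisons with day 6. It gave medians of -0.0572 and 0.16 for the redox defence genes there, beside 0.10 and 0.18 for all genes. Its share of higher calls there was 75.1% and 77.4%. Of 78 differences of single genes, 6 changed sign with probe sets averaged, 4 with equal hybridization controls, 17 and 5 with the reference scalings, and 0 with the other alternatives. Hmox1 kept its 2-fold calls in all alternatives run. It has 1 probe set, above the background on all arrays, so only the scalings could change its values. Mgst1 at day 14 against day 6 fell short of 2-fold with equal hybridization controls and with probe sets averaged (0.83). Averaging moved Sod3 there to 1.18. In both genes the second probe set that entered the average was below the background on all arrays. The cause of these changes was not tested beyond the construction of each alternative. Values near the background limit Hmox1 at day 14 and Sod3 at day 6.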

Other observations

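Other redox enzymes were also described. Of 22 at day 14 against day 6, 1 was at least 2-fold higher (4.55%, against 5.50% of all genes) and 2 were lower (9.09%, against 3.88%). Their median log2 difference was -0.05. Sesn3, a sestrin, differed by 1.60 on its main probe set, while its other probe set gave -0.05. Sesn2 was 2.79-fold lower, with its other probe set at -1.06, and the methionine sulfoxide reductase gene Msra was 2.06-fold lower. Txnip, an inhibitor of thioredoxin, had log2 values of 26.98, 27.66 and 28.29 at days 6, 14 and 28, and its day 28 level was 2.49 times that of day 6, with 1.15 on its other probe set. In the second step 0 of 22 were higher, against 2.20% of all genes, and 1 was lower (4.55%, against 1.45%). This was Msrb3, by 2.65-fold, and the median of the list was 0.06. Over the whole course 3 were higher (13.6%, against 6.61% of all genes) and 2 lower (9.09%, against 4.00%), with a median of -0.14.

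Of 10 heme synthesis and breakdown genes other than Hmox1, Blvrb alone was at least 2-fold lower at day 14 than at day 6. This was 10.0%, against 3.88% of all genes, and 0 were higher, against 5.50%. Ppox, of late heme synthesis, stood 2.03-fold above its day 6 level at day 28, and Cpox, the enzyme before it, 1.74-fold lower. The medians were -0.13, 0.26 and 0.08 for day 14 against day 6, day 28 against day 14 and day 28 against day 6. Of 10 melanocyte markers, 8, 7 and 8 were described in those comparisons. Their medians were 2.27 and -0.70 in the first and second. The numbers 2-fold higher and lower were 5 and 1 in the first, 0 and 3 in the second, and 4 and 0 in the last. Among all genes the shares were 5.50% and 3.88%, 2.20% and 1.45%, and 6.61% and 4.00%. Fibroblast markers had medians of 0.37, 0.20 and 0.52, macrophage markers -0.22, 0.14 and -0.13, keratinocyte markers -0.05, 0.14 and 0.09, and reference genes -0.13, 0.00 and -0.16.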
